A study of Mus musculus with 10 samples.

Results

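The genes that build, sulfate and trim heparan sulfate were followed in mouse embryonic stem cells (ESCs) depleted of Wapal or Smc3. The 10 genes listed were Ext1, Ext2, Ndst1, Ndst2, Glce, Hs2st1, Hs6st1, Hs6st2, Sulf1 and Sulf2, and every probe set that carried exactly 1 of these symbols in the platform annotation was taken. This gave 24 probe sets for 9 of the 10 genes, of 45037 probe sets for 18193 genes on the array, and Ndst1 was not analysed here. The list was drawn up after results of these arrays had been seen, although its rule sets no threshold on the values, so the adjusted p-values below place each probe set in a fit of all probe sets and are no independent evidence that the list as a whole responds.

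The cells were CJ9, an ESC line of 129svj origin. They were infected with lentivirus for 48 h with polybrene at 10 µg/mL, then given puromycin at 4 µg/mL in ESC medium with LIF, and were kept for 48 h after infection. The 5 groups were Wapal shRNA1, Wapal shRNA2, Smc3 shRNA1, Smc3 shRNA2 and Empty Vector, which carried no hairpin, with 2 arrays each and 10 arrays in all (Affymetrix Mouse Genome). All groups, Empty Vector included, were thus infected and exposed to puromycin. The Smc3 arrays bear sample numbers in a run apart from those of the other groups, and the labels used name no batch. Any separate processing of these arrays cannot be told apart from Smc3 depletion, against Empty Vector or against Wapal depletion. Wapal, whose gene is listed as Wapl, releases cohesin from chromatin, and Smc3 is a core subunit of the cohesin ring. These were depletions by RNAi in 1 cell line, and some of each transcript remained. On the linear intensity scale, Wapl gave 929 and 1005 in Wapal shRNA1, 235 and 217 in Wapal shRNA2, and 2500 and 2648 in Empty Vector. Smc3 gave 187 and 176 in Smc3 shRNA1, 223 and 189 in Smc3 shRNA2, and 1536 and 1555 in Empty Vector. Each targeted gene was therefore lower on all 4 of its depleted arrays than on both Empty Vector arrays.

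Heparan sulfate is a long sugar chain carried on core proteins at the cell surface and in the matrix. Ext1 and Ext2 form the polymerase that extends the chain, Ndst enzymes replace acetyl groups by sulfate, Glce converts glucuronic to iduronic acid, and Hs2st1, Hs6st1 and Hs6st2 add sulfate at the 2-O and 6-O positions. Sulf1 and Sulf2 act later, outside the cell, where they remove 6-O-sulfate from finished chains. The sulfate pattern sets how well the chain binds fibroblast growth factors, Wnt proteins and other ligands, and mouse ESCs that lack heparan sulfate are known to exit self-renewal poorly because FGF signalling is weak. Transcript levels alone were measured here, and neither enzyme activity nor the sugar chains were assayed.

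Of the 6-O-sulfotransferase genes, Hs6st1 was lower in both depletions and Hs6st2 was higher in Smc3 depletion, with a less stable rise in Wapal depletion. The upstream sequences of Hs6st2 and Hs6st1 are shown because they are the members that moved furthest. The sequences come from the RefSeq promoter table on GRCm38.p6, a reference from another mouse strain than these cells, and each run holds the 250 bases before an annotated start, 5′ to 3′ on the gene's strand. Capitals mark matches on either strand to the GC box GGGCGG, the CCAAT box CCAAT, the TATA box TATAAA or the E-box CACGTG, and no matches overlapped. The Hs6st1 window is chr1:36068150-36068399 on the plus strand, and both Hs6st2 windows lie on the minus strand, at chrX:51680478-51680727 and chrX:51681603-51681852.
Hs6st1: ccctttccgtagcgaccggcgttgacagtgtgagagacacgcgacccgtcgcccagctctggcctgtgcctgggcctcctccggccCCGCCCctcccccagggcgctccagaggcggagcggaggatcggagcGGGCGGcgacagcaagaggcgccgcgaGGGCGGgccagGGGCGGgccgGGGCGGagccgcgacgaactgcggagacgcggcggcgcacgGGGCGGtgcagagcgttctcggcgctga
Hs6st2, first window: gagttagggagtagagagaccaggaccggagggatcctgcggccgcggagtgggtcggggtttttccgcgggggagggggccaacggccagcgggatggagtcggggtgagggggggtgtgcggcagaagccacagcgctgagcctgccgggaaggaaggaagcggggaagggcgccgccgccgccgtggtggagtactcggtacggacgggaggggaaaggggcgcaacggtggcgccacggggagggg
Hs6st2, second window: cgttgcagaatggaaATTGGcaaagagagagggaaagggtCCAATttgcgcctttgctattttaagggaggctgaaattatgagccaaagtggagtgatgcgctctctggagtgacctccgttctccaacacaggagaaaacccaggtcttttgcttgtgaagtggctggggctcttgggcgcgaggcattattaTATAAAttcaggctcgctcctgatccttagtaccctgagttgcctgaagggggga

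The Hs6st1 window held 6 GC boxes, 76.4% G and C, and 37 CpG dinucleotides. The first Hs6st2 window held none of the 4 motifs, with 72.0% G and C and 26 CpG, and the second held 2 CCAAT boxes and 1 TATA box, with 50% G and C and 7 CpG. The median over 32841 windows of this length was 52.4% G and C and 6 CpG. A GC box was found in 32.7% of all windows, a CCAAT box in 33.9%, a TATA box in 12.4% and an E-box in 6.02%. The Hs6st1 window and the first Hs6st2 window thus both held more G and C than the median, and the second Hs6st2 window held less. The arrays do not tell which Hs6st2 start the cells used, so no difference between the genes is read from this. In all, 7 member genes matched 9 windows. These matches describe letters and do not show that a factor binds.

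The largest change among the 9 genes was that of Hs6st2, a 6-O-sulfotransferase gene that was dim in Empty Vector and rose in Smc3 depletion. Its brightest probe set, 1450047_at, gave intensities of 97.9 and 131 in Smc3 shRNA1, 255 and 228 in Smc3 shRNA2, and 12.9 and 18.4 in Empty Vector. All 4 Smc3-depleted arrays lay far above both Empty Vector arrays. The log2 change of Hs6st2 in Smc3 depletion was 3.42 ± 0.17 (limma SE, n = 4 and 2 arrays), or 10.7-fold, with an adjusted p of 6.77e-05. The size of this change rests on a dim Empty Vector level, and with 16 added to every intensity before the log it was 2.53 (adjusted p 0.000809). Each hairpin gave this direction, with a log2 change of 2.88 in Smc3 shRNA1 and 3.97 in Smc3 shRNA2 against Empty Vector. In these bulk samples, more cells with Hs6st2 transcript and more transcript per cell cannot be told apart.

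Hs6st2 was also higher in Wapal depletion, by less. The same probe set gave 42.0 and 47.5 in Wapal shRNA1, 27.2 and 17.8 in Wapal shRNA2, and 12.9 and 18.4 in Empty Vector. The Wapal shRNA1 arrays lay above both Empty Vector arrays, and 1 Wapal shRNA2 array lay between them. In Wapal depletion the log2 change of Hs6st2 was 1.03 ± 0.19 (SE, n = 4 and 2), or 2.04-fold, with an adjusted p of 0.0252. Taken alone, Wapal shRNA1 gave a log2 change of 1.54 with an adjusted p of 0.0130, whereas Wapal shRNA2 gave 0.52 with an adjusted p of 0.219. Here, as throughout, the SE measures the spread within groups, so the difference between hairpins does not enter it. The Wapal call for Hs6st2 did not hold without Empty Vector replicate 1 (log2 change 0.77, adjusted p 0.118), Wapal shRNA1 replicate 1 (adjusted p 0.0711), Wapal shRNA1 replicate 2 (adjusted p 0.0911) or Wapal shRNA2 replicate 1 (adjusted p 0.0602). With 16 added to every intensity before the log, the change was 0.61 (adjusted p 0.0352). Hs6st2 in Empty Vector lay under the array median of 38.6.

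Set directly against each other, Hs6st2 was lower in Wapal depletion than in Smc3 depletion, with a log2 difference of -2.40 ± 0.16 (SE, 10 arrays, adjusted p 1.78e-05). The order of the groups for Hs6st2, high to low, was Smc3 shRNA2, Smc3 shRNA1, Wapal shRNA1, Wapal shRNA2 and Empty Vector. Of the neighbours in that order, Smc3 shRNA2 exceeded Smc3 shRNA1 by a log2 difference of 1.09 ± 0.19 (adjusted p 0.0117), which did not pass without Smc3 shRNA1 replicate 1 (adjusted p 0.0937), Smc3 shRNA2 replicate 1 (adjusted p 0.104) or Smc3 shRNA2 replicate 2 (adjusted p 0.0702). Both Smc3 shRNA1 arrays lay above both Wapal shRNA1 arrays, a pair of groups not tested alone. Wapal shRNA2 minus Wapal shRNA1 was -1.02 ± 0.22 in log2 for Hs6st2, which missed the threshold (adjusted p 0.0766), and Wapal shRNA2 and Empty Vector overlapped.

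All 4 Hs6st2 probe sets were dim, here meaning a mean log2 intensity under 6 over the 10 arrays. A further one, 1420938_at, gave 17.5 and 14.9 in Smc3 shRNA1, 14.6 and 24.3 in Smc3 shRNA2, and 9.78 and 9.73 in Empty Vector. It was higher on all 4 Smc3-depleted arrays, with a log2 change of 0.84 ± 0.18 (adjusted p 0.0302), while Hs6st2 at this probe set changed by -0.01 in Wapal depletion. The remaining Hs6st2 probe sets, 1446257_at and 1420939_at, changed by -0.04 and 0.17 in Smc3 depletion, and by -0.21 and 0.13 in Wapal depletion, and none of these changes passed. The Hs6st2 rise in Smc3 depletion was thus seen at 2 of its 4 probe sets and that in Wapal depletion at 1 of 4.

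Hs6st1, a further 6-O-sulfotransferase gene, was lower in both depletions. Its single probe set, 1417293_at, gave 127 and 107 in Wapal shRNA1 and 126 and 125 in Wapal shRNA2. It gave 113 and 127 in Smc3 shRNA1, 107 and 98.8 in Smc3 shRNA2, and 204 and 207 in Empty Vector. All 8 depleted arrays lay well below both Empty Vector arrays, which differed from each other by only 0.03 in log2. The log2 change of Hs6st1 was -0.77 ± 0.10 in Wapal depletion (adjusted p 0.0086) and -0.89 ± 0.10 in Smc3 depletion (adjusted p 0.00173). Each hairpin alone passed as well, where 4.63% of all probe sets passed for Wapal shRNA1, 3.75% for Wapal shRNA2, 8.69% for Smc3 shRNA1 and 7.65% for Smc3 shRNA2. For Hs6st1 the single hairpins gave log2 changes of -0.82 in Wapal shRNA1 and -0.71 in Wapal shRNA2, and of -0.78 in Smc3 shRNA1 and -0.999 in Smc3 shRNA2. Wapal depletion minus Smc3 depletion gave a log2 difference of 0.12 (95% interval -0.05 to 0.30) for Hs6st1, which did not pass (adjusted p 0.32). Both depletions share the 2 Empty Vector arrays, so the fall of Hs6st1 in one is not independent of that in the other.

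**Figure D1:**
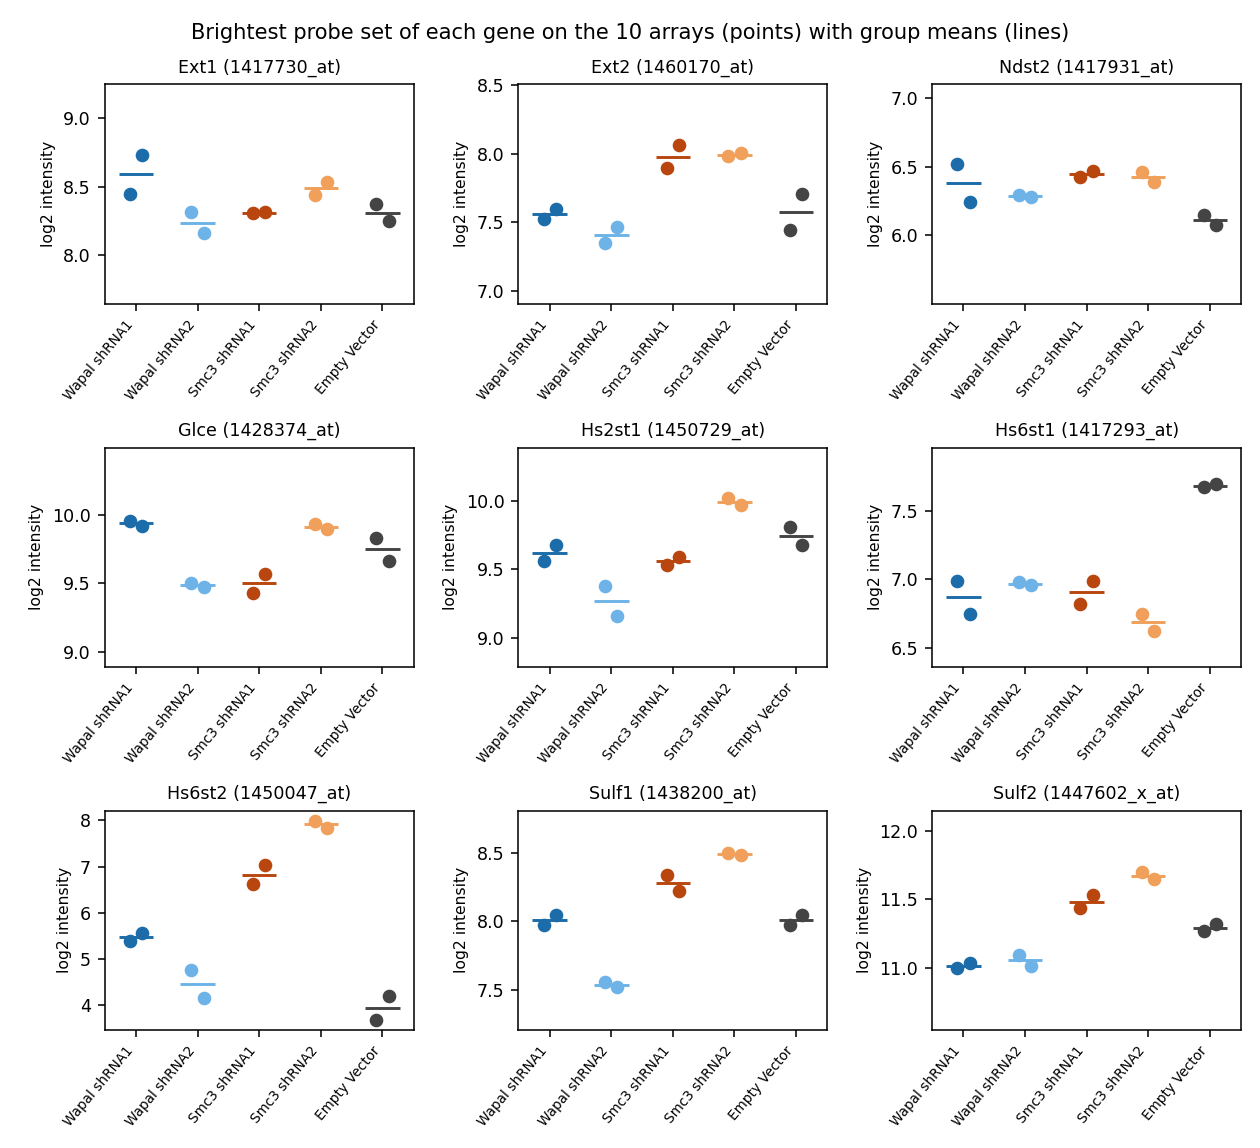
Log2 intensity (y axis) of the brightest probe set of each of the 9 genes on the 10 arrays, by group (x axis), with points for arrays, lines for group means and a y range of its own in each panel. Hs6st2 is high in both Smc3 groups, at 97.9 to 255 on the linear scale against 12.9 and 18.4 in Empty Vector, and Hs6st1 is lower in every depleted group.

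Over the 9 genes, 2 passed in Wapal depletion, Hs6st2 higher and Hs6st1 lower, where 5.91% of all probe sets passed (2.08% higher and 3.83% lower). At the brightest probe set of each gene, 7.56% of all 18193 genes passed. In Smc3 depletion 3 passed, Hs6st2 and Sulf1 higher and Hs6st1 lower, where 7.62% of all probe sets passed (4.22% higher and 3.41% lower). The share of all genes, counted likewise, was 10%. The median log2 change over the 9 genes was -0.09 in Wapal depletion and 0.29 in Smc3 depletion, beside a median of 0.01 over all 18193 genes in each. Because the list was proposed with these contrasts known, nothing is read from its share of calls.

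The chain polymerase genes did not pass against Empty Vector. Ext1, at 1417730_at, gave 349 and 425 in Wapal shRNA1 and 319 and 286 in Wapal shRNA2. It gave 317 and 318 in Smc3 shRNA1, 347 and 371 in Smc3 shRNA2, and 331 and 305 in Empty Vector. The groups overlapped, and the log2 change of Ext1 was 0.10 (95% interval -0.16 to 0.36) in Wapal depletion and 0.09 (-0.12 to 0.30) in Smc3 depletion.

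Ext2, which pairs with Ext1 in the polymerase, differed between the depletions. Its probe set 1460170_at gave 184 and 193 in Wapal shRNA1 and 163 and 176 in Wapal shRNA2. It gave 238 and 268 in Smc3 shRNA1, 253 and 256 in Smc3 shRNA2, and 174 and 209 in Empty Vector, so the 4 Smc3-depleted arrays lay above all others. Ext2 changed in log2 by -0.09 ± 0.11 in Wapal depletion (adjusted p 0.651) and 0.41 ± 0.11 in Smc3 depletion (adjusted p 0.0565), and neither passed. Wapal depletion minus Smc3 depletion was -0.50 ± 0.08 for Ext2 (adjusted p 0.00213). The 2 further Ext2 probe sets, both dim, differed between the depletions by 0.10 and -0.04 and did not pass.

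Ndst2, an N-deacetylase and N-sulfotransferase, was measured by 1 probe set, 1417931_at, with 92.0 and 75.6 in Wapal shRNA1 and 78.4 and 77.8 in Wapal shRNA2. It gave 86.1 and 88.5 in Smc3 shRNA1, 88.2 and 83.6 in Smc3 shRNA2, and 70.9 and 67.6 in Empty Vector. Every depleted array lay above both Empty Vector arrays, but the log2 changes of Ndst2, 0.22 ± 0.11 in Wapal depletion (adjusted p 0.256) and 0.32 ± 0.09 in Smc3 depletion (adjusted p 0.0653), missed the threshold.

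Glce, the epimerase gene, differed more between hairpins than between either depletion and Empty Vector at its brightest probe set. Its probe set 1428374_at gave 724 and 710 in Wapal shRNA2, 989 and 969 in Wapal shRNA1, 974 and 953 in Smc3 shRNA2, 688 and 759 in Smc3 shRNA1, and 911 and 809 in Empty Vector. Wapal shRNA1 and Smc3 shRNA2 were the high groups. The mean change of Glce against Empty Vector was -0.04 in each depletion. The hairpins against one gene differed by a log2 of -0.45 ± 0.11 for Wapal shRNA2 minus Wapal shRNA1 (adjusted p 0.0985) and 0.41 ± 0.11 for Smc3 shRNA2 minus Smc3 shRNA1 (adjusted p 0.0552), and neither passed. The further Glce probe sets were dim and did not pass in these comparisons. Of these, 1440386_at had a log2 change of -0.60 ± 0.16 in Wapal depletion (adjusted p 0.0679) and -0.45 ± 0.20 in Smc3 depletion (adjusted p 0.259). There the Wapal hairpins differed by 0.12 and the Smc3 hairpins by 0.52 in log2, and the Empty Vector arrays differed from each other by 0.63.

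Hs2st1, the 2-O-sulfotransferase gene, had 4 probe sets that did not move together. The brightest, 1450729_at, gave 665 and 570 in Wapal shRNA2, 754 and 818 in Wapal shRNA1, 1036 and 999 in Smc3 shRNA2, 737 and 770 in Smc3 shRNA1, and 894 and 816 in Empty Vector. The Smc3 shRNA2 arrays stood above the rest and the Wapal shRNA2 arrays below. The log2 change of Hs2st1 was -0.30 ± 0.11 in Wapal depletion (adjusted p 0.14) and 0.04 ± 0.09 in Smc3 depletion (adjusted p 0.88), and Wapal depletion minus Smc3 depletion was -0.33 ± 0.08 (adjusted p 0.0143). At the other Hs2st1 probe sets this difference was -0.20 at 1422739_at (adjusted p 0.226), 0.05 at 1440905_at (adjusted p 0.835) and -0.03 at 1450730_at (adjusted p 0.801), so it passed at 1 of 4. That call for Hs2st1 did not hold without Wapal shRNA2 replicate 2 (adjusted p 0.058), Smc3 shRNA1 replicate 2 (adjusted p 0.0502) or Smc3 shRNA2 replicate 1 (adjusted p 0.0525).

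Between the Smc3 hairpins, Hs2st1 gave opposite answers at different probe sets. Smc3 shRNA2 minus Smc3 shRNA1 was 0.43 ± 0.11 in log2 at 1450729_at (adjusted p 0.0372). It was -0.68 ± 0.11 at 1450730_at (adjusted p 0.00751) and -0.77 ± 0.13 at 1422739_at (adjusted p 0.00997). The call at 1450729_at did not hold when any 1 of the 4 Smc3-depleted arrays was left out (adjusted p 0.13 to 0.209). At 1450730_at the intensities were 95.2 and 103 in Smc3 shRNA2 and 151 and 167 in Smc3 shRNA1. At the last probe set of Hs2st1, 1440905_at, the Empty Vector arrays themselves differed by 0.63 in log2. No direction is therefore given for Hs2st1 as a gene between these hairpins.

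**Figure D2:**
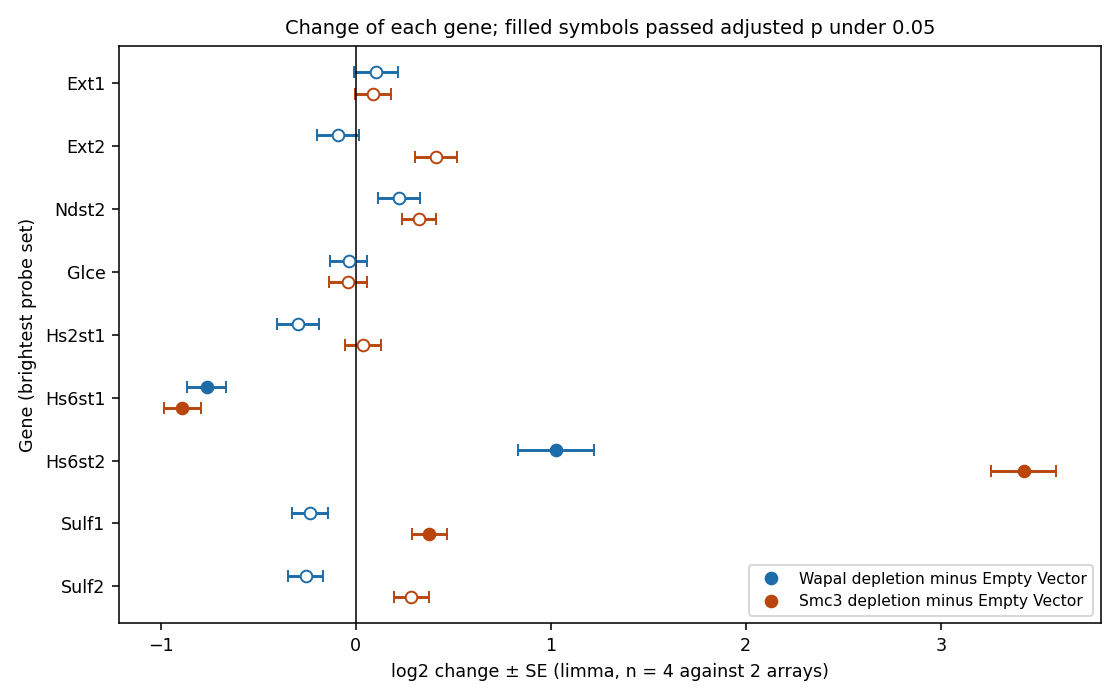
Log2 change (x axis) of each gene's brightest probe set (y axis) in Wapal depletion and in Smc3 depletion against Empty Vector, with limma standard errors (n = 4 and 2 arrays) and filled symbols for an adjusted p under 0.05. Hs6st2 reaches 1.03 and 3.42, Hs6st1 -0.77 and -0.89, and the Sulf1 and Sulf2 symbols lie on opposite sides of 0 in the 2 depletions.

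The endosulfatase genes Sulf1 and Sulf2 separated the depletions at their brightest probe sets. Sulf1, at 1438200_at, gave 251 and 264 in Wapal shRNA1 and 188 and 183 in Wapal shRNA2. It gave 323 and 298 in Smc3 shRNA1, 361 and 357 in Smc3 shRNA2, and 251 and 264 in Empty Vector. The Smc3-depleted arrays all lay above Empty Vector, the Wapal shRNA2 arrays lay below, and the Wapal shRNA1 arrays could not be separated from it. The log2 change of Sulf1 was -0.24 ± 0.09 in Wapal depletion (adjusted p 0.164), with -0.47 in Wapal shRNA2 alone (adjusted p 0.0486), and 0.38 ± 0.09 in Smc3 depletion (adjusted p 0.0413). Wapal depletion minus Smc3 depletion was -0.61 ± 0.07 for Sulf1 (adjusted p 0.000244). The Smc3 call for Sulf1 did not hold when any 1 of the 6 arrays was left out (log2 change 0.34 to 0.41, adjusted p 0.0646 to 0.171), whereas the difference between the depletions passed without each of the 10 arrays.

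A further Sulf1 probe set, 1436319_at, moved likewise, with -0.21 ± 0.13 in Wapal depletion (adjusted p 0.377) and 0.35 ± 0.09 in Smc3 depletion (adjusted p 0.0487), and Wapal depletion minus Smc3 depletion was -0.56 ± 0.10 (adjusted p 0.00283). The third Sulf1 probe set, 1446416_at, was dim, with 0.24 in Wapal depletion and 0.12 in Smc3 depletion, and did not pass.

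Sulf2, at 1447602_x_at, gave 2043 and 2096 in Wapal shRNA1 and 2189 and 2067 in Wapal shRNA2. It gave 2773 and 2953 in Smc3 shRNA1, 3322 and 3207 in Smc3 shRNA2, and 2462 and 2555 in Empty Vector. No Wapal-depleted array reached either Empty Vector array, and no Smc3-depleted array came down to one. The log2 changes of Sulf2 were small, at -0.26 ± 0.09 in Wapal depletion (adjusted p 0.134) and 0.29 ± 0.09 in Smc3 depletion (adjusted p 0.0984), and neither passed. The direct difference of -0.54 ± 0.07 between the depletions did (adjusted p 0.000452). The suffix of this Sulf2 probe set marks probes of which some can also match other transcripts. At lower intensity, 1430388_a_at gave similar log2 changes, of -0.31 in Wapal depletion and 0.24 in Smc3 depletion. The difference between the depletions there was -0.55 ± 0.08 (adjusted p 0.00126).

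The third Sulf2 probe set, 1442408_at, went another way in Smc3 depletion. It gave 294 and 334 in Wapal shRNA1, 367 and 323 in Wapal shRNA2, 374 and 340 in Smc3 shRNA1, 457 and 386 in Smc3 shRNA2, and 579 and 531 in Empty Vector. All 8 depleted arrays were below both Empty Vector arrays, and Sulf2 at this probe set had a log2 change of -0.76 ± 0.11 in Wapal depletion (adjusted p 0.0104) and of -0.52 ± 0.11 in Smc3 depletion (adjusted p 0.0232). The Sulf2 probe sets therefore agreed on a lower level in Wapal depletion than in Smc3 depletion, which passed at 2 of 3 (-0.24 ± 0.09 and adjusted p 0.0899 at 1442408_at), and disagreed on the direction of Smc3 depletion against Empty Vector.

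**Figure D3:**
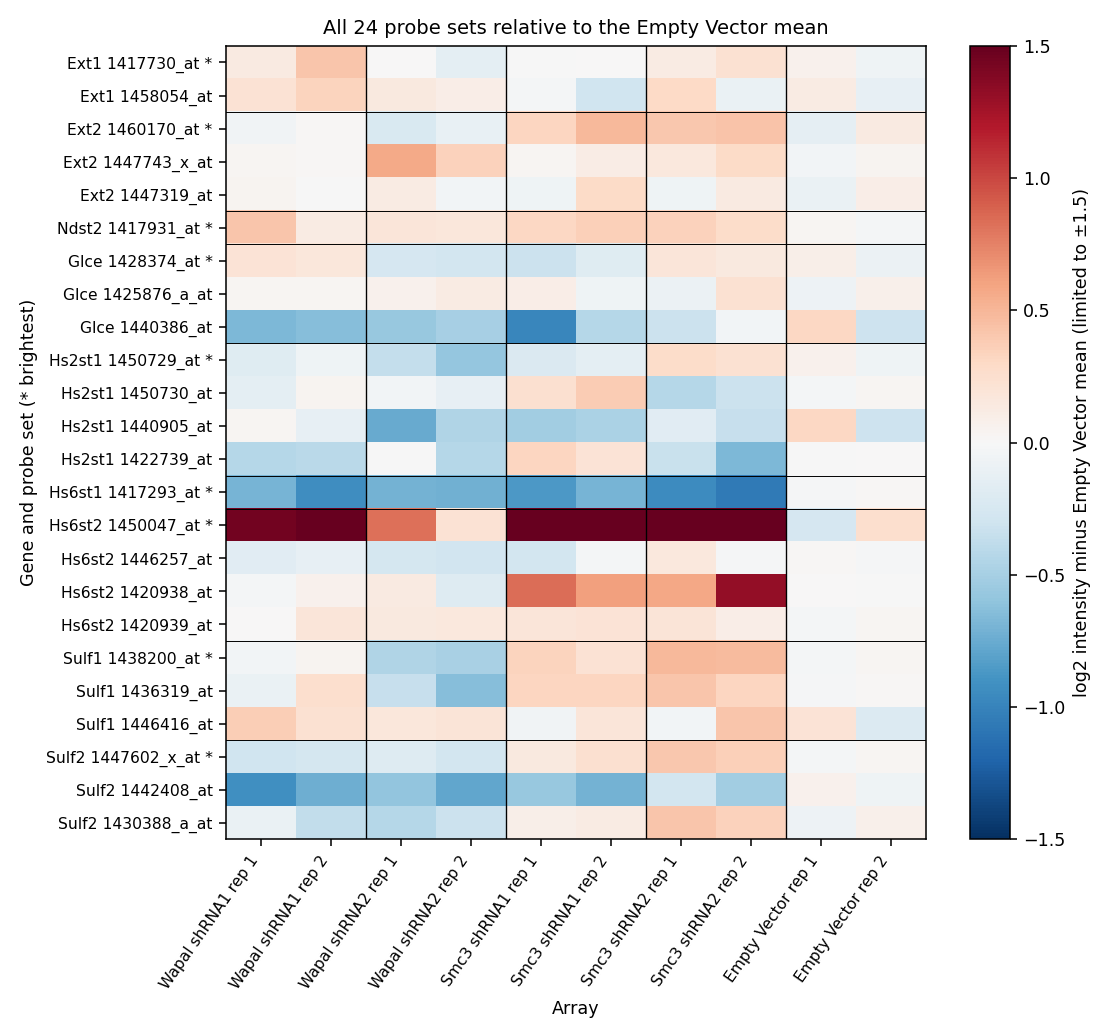
Log2 intensity of all 24 probe sets (rows, grouped by gene, with * for the brightest) on the 10 arrays (columns), as the difference from the Empty Vector mean, with the colour limited to ±1.5. The rows of Sulf2 and of Hs2st1 disagree with each other, while both bright Sulf1 rows, 1438200_at and 1436319_at, run alike.

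In the direct comparison of Wapal depletion with Smc3 depletion, 5 of the 9 genes passed, where 17.4% of all probe sets did (6.71% higher and 10.7% lower). At the brightest probe set of each gene, 22.5% of all genes passed. The 5 member genes were Hs6st2, Hs2st1, Ext2, Sulf1 and Sulf2, and all 5 were lower in Wapal depletion. Ext1, Ndst2, Glce and Hs6st1 did not pass, with log2 differences of 0.01 (95% interval -0.17 to 0.20) for Ext1, -0.10 (-0.27 to 0.07) for Ndst2 and 0.01 (-0.15 to 0.16) for Glce. By arrays that did not overlap with Empty Vector, 3 of 9 genes stood apart in Wapal depletion (Ndst2 above, Hs6st1 and Sulf2 below), where 29% of all probe sets did. In Smc3 depletion 6 of 9 did (Hs6st2, Ndst2, Ext2, Sulf1 and Sulf2 above, Hs6st1 below), where 23.6% of all probe sets did. The 9 genes stand at their brightest probe sets, 8 of them not dim, whereas both shares cover all probe sets, dim ones included. A share at the brightest probe set of each gene was not taken for these counts, so nothing is read from them.

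Between the hairpins against one target, 0 of 9 genes passed for Wapal shRNA2 against Wapal shRNA1 by limma, where 1.11% of all probe sets did and 5 of the 9 had an unadjusted p under 0.05, and 2 of 9 (Hs6st2 and Hs2st1) passed for Smc3 shRNA2 against Smc3 shRNA1, where 9.89% did. Over all genes at their brightest probe set, the shares were 1.46% for the Wapal hairpins and 12.5% for the Smc3 hairpins. The arrays also fell on 2 sides that no label names and that were seen in earlier results. Empty Vector replicate 1, Wapal shRNA1 and Smc3 shRNA2 were on one side, and Empty Vector replicate 2, Wapal shRNA2 and Smc3 shRNA1 on the other. Hairpin and side therefore cannot be told apart, although depletion and side can. Within sides, Hs6st2 was higher by 1.79 and 0.26 in Wapal shRNA1 and Wapal shRNA2 and by 4.23 and 2.62 in Smc3 shRNA2 and Smc3 shRNA1, each against the Empty Vector array of its side. Hs6st1 was lower within both sides, with log2 differences of -0.80 and -0.73 for the Wapal hairpins in the same order and of -0.99 and -0.79 for the Smc3 hairpins, with 1 Empty Vector array a side and hence no test. Sulf1 was higher in Smc3 depletion within both sides, by 0.52 in Smc3 shRNA2 and 0.24 in Smc3 shRNA1, and gave 0.03 in Wapal shRNA1 and -0.50 in Wapal shRNA2. With the side as a term, the Hs6st2 call in Wapal depletion (adjusted p 0.076) and the Sulf1 call in Smc3 depletion (adjusted p 0.0781) did not hold.

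Across the 10 arrays, the members' brightest probe sets correlated with each other by a median Pearson r of 0.39 over 36 pairs of genes, a description only, since the arrays share groups and sides. The highest were Ext2 with Sulf1 and Ext2 with Sulf2 (r = 0.879 each), and the lowest was Hs6st2 with Hs6st1 (r = -0.736). Among 9689 genes with a mean log2 intensity of at least 6, the profiles most like Hs6st2 were those of Slc35a3 (r = 0.981), Nphs1 (0.98), Eda2r (0.962), Pros1 (0.958) and 1700018B24Rik (0.958). Slc35a3 encodes a Golgi transporter of a nucleotide sugar, and its log2 change was 0.10 in Wapal depletion and 0.46 in Smc3 depletion. Those most like Hs6st1 were Itpk1 (r = 0.965), Btbd11 (0.961), Zbtb43 (0.959), Ddx27 (0.956) and Rab29 (0.945).

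The rest of the pathway was taken from lists of 72 further genes, of which 69 were measured. Against Empty Vector, 7.56% of all genes passed in Wapal depletion and 10% in Smc3 depletion (brightest probe set). In lists this short, counts near these shares, 0 included, are not read as a response or as its absence. None of the 14 measured other heparan sulfate enzymes (Ndst, Hs3st and Hs6st relatives, Ext-like genes and heparanases), 11 of them dim, passed in either depletion by limma (1 in each at an unadjusted p under 0.05), and their median log2 change was -0.02 in Wapal depletion and -0.01 in Smc3 depletion. Among them was the remaining 6-O-sulfotransferase gene, Hs6st3, which was dim at its single probe set and gave log2 changes of -0.13 in Wapal depletion (adjusted p 0.494) and -0.08 in Smc3 depletion (adjusted p 0.76). The linkage region joins the chain to its core protein. Its 6 enzymes gave 0 calls by limma in either depletion against Empty Vector (2 in each at an unadjusted p under 0.05). Their medians were -0.15 in Wapal depletion and -0.12 in Smc3 depletion. By single hairpin against Empty Vector, B4galt7 passed lower in Wapal shRNA2 and Pxylp1 lower in Smc3 shRNA2. In the direct comparison of the depletions, Pxylp1 was higher and Fam20b lower in Wapal depletion, where 22.5% of all genes passed (brightest probe set). The 7 lysosomal breakdown enzymes also gave 0 calls (2 in each at an unadjusted p under 0.05), with medians of 0.11 in Wapal depletion and 0.26 in Smc3 depletion. In the direct comparison the iduronate sulfatase gene Ids was lower in Wapal depletion than in Smc3 depletion, with a log2 difference of -0.65 ± 0.08 (adjusted p 0.00036).

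Among the 12 genes that supply sugar precursors and sulfate donors, 1 passed in each depletion, near the share of all genes (7.56% and 10%). Ugp2, which makes UDP-glucose, rose by 0.43 ± 0.09 in Wapal depletion (adjusted p 0.0344), and Slc26a2, a sulfate transporter, rose by 0.52 ± 0.10 in Smc3 depletion (adjusted p 0.016). Of the 14 core proteins, Gpc4, a glypican, fell by 0.66 ± 0.14 (adjusted p 0.0354) and Col18a1, a basement membrane collagen, fell by 0.50 ± 0.12 (adjusted p 0.0469) in Wapal depletion. In Smc3 depletion the syndecan gene Sdc4 rose by 0.75 ± 0.12 (adjusted p 0.0094) and Sdc1 fell by 0.39 ± 0.10 (adjusted p 0.0486). At their further probe sets, Gpc4, Slc26a2 and Sdc4 each passed once more in the same direction, while those of Ugp2, Col18a1 and Sdc1 did not pass. By single hairpin against Empty Vector, Slc26a2 and Sdc4 passed with each Smc3 hairpin. Gpc4 passed in Wapal shRNA2 but not in Wapal shRNA1, and Col18a1 in Wapal shRNA1 but not in Wapal shRNA2. Neither Wapal hairpin alone passed for Ugp2, and neither Smc3 hairpin for Sdc1. Gpc4 was also lower in Smc3 shRNA1, where it passed, though not in Smc3 depletion. Agrn passed higher in Smc3 shRNA2 and Ugdh in Smc3 shRNA1. The remaining 12 core genes in each depletion did not pass. Between the depletions, 8 of the 14 core genes passed, beside 17.4% of all probe sets and 22.5% of all genes (brightest probe set). Sdc1 and Hspg2 were higher and Gpc1, Sdc2, Sdc4, Agrn, Col18a1 and Tgfbr3 lower in Wapal depletion. Of the 12 supply genes, Ugp2 was higher and Slc26a2, Slc35d1 and Slc35d2 lower in Wapal depletion than in Smc3 depletion, and these passed.

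Of 16 genes for the related chains chondroitin and dermatan sulfate, Chst15, a sulfotransferase that adds a further sulfate to chondroitin, rose in both depletions. Its intensity was 63.9 and 75.2 in Wapal shRNA1, 69.3 and 69.0 in Wapal shRNA2, 135 and 147 in Smc3 shRNA1, 83.1 and 95.3 in Smc3 shRNA2, and 43.9 and 39.8 in Empty Vector. All 8 depleted arrays lay above both Empty Vector arrays, and the log2 change of Chst15 was 0.73 ± 0.10 in Wapal depletion (adjusted p 0.011) and 1.42 ± 0.10 in Smc3 depletion (adjusted p 0.000282). Its other probe set, 1426514_at, changed by 0.35 and 0.54 and did not pass. Dsel, related to the dermatan sulfate epimerase, rose by 0.73 ± 0.10 in Smc3 depletion (adjusted p 0.00404). The other 14 genes of the list did not pass in either depletion. Against Empty Vector, Chst15 passed with each hairpin, and Dsel in Smc3 shRNA1 but not in Smc3 shRNA2. Chst11 and Chst12 passed higher in Smc3 shRNA1, and Dse lower in Wapal shRNA2 and Smc3 shRNA2. Dsel, Chst15 and Chst11 were lower in Smc3 shRNA2 than in Smc3 shRNA1, and these differences passed. Between the depletions Chsy1, Chst12, Chst15 and Dsel passed, all lower in Wapal depletion, beside 22.5% of all genes (brightest probe set).

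**Figure D4:**
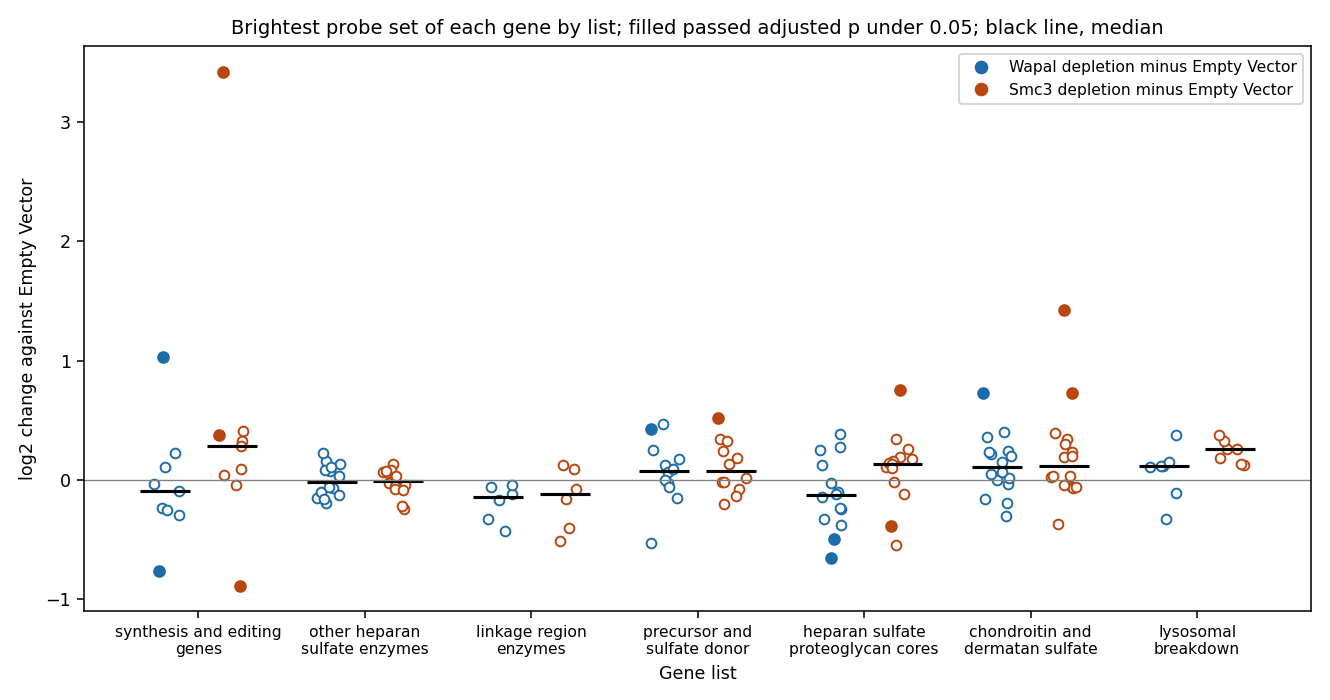
Log2 change against Empty Vector (y axis) of the brightest probe set of each gene in the synthesis and editing genes and 6 further pathway lists (x axis), with Wapal depletion left of Smc3 depletion, filled symbols for an adjusted p under 0.05 and black lines for medians. Hs6st2 at 3.42 and Chst15 at 1.42 in Smc3 depletion are the points highest above 0, and no enzyme of the linkage region or of lysosomal breakdown is filled.

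The markers of ESCs were bright on all arrays. The 8 pluripotent cell markers had a mean log2 intensity of 12.0 to 12.5 on every array, with summed intensities of 60987 to 67884 in Wapal depletion, 56599 to 62138 in Smc3 depletion, and 62175 and 65166 in Empty Vector. The mean was 12.2 and 12.14 in Wapal shRNA1, 12.38 and 12.4 in Wapal shRNA2, and 12.37 and 12.47 in Empty Vector. Within this list Esrrb fell in both depletions, by 0.66 and 0.77, and Nanog (0.71) and Zfp42 (0.44) fell in Smc3 depletion. Esrrb and Nanog passed with each Smc3 hairpin, and Zfp42 in Smc3 shRNA2 but not in Smc3 shRNA1. Esrrb passed in Wapal shRNA1, whereas 0 of these 8 markers passed by limma in Wapal shRNA2 (3 at an unadjusted p under 0.05). Nanog was lower in Smc3 shRNA2 than in Smc3 shRNA1, which passed. Of 8 fibroblast markers 7 were dim, with summed intensities of 236.4 to 288.5 in Wapal depletion, 252.2 to 327.2 in Smc3 depletion, and 311.5 and 363.9 in Empty Vector. Thy1 fell in both depletions, Dcn rose in both, and Pdgfrb fell in Wapal depletion and rose in Smc3 depletion. Beside these calls, 7.56% of all genes passed in Wapal depletion and 10% in Smc3 depletion (brightest probe set). These 3 genes passed in Wapal shRNA1, and 0 of the 8 fibroblast markers passed by limma in Wapal shRNA2 (3 at an unadjusted p under 0.05). Thy1 and Dcn passed with each Smc3 hairpin, but Pdgfrb in Smc3 shRNA1 only. Pdgfrb also differed between the hairpins against each target, which passed. Of 8 early lineage markers 7 were dim and 0 passed by limma against Empty Vector (2 in Wapal depletion and 0 in Smc3 depletion at an unadjusted p under 0.05), with sums of 312.9 to 344.4, 294.8 to 312.9, and 287.7 and 322.5 in the same order of groups. The part of these marker changes in the results for Hs6st2, Hs6st1, Sulf1 and Sulf2 was not tested.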

How the data were processed

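Each deposited value is a linear intensity of 1 probe set, made by the authors with RMA (background correction, quantile normalization and a summary per probe set, version not stated) from 10 Affymetrix arrays. RMA gives arrays a similar distribution, so a shift of most genes one way could not be seen, and differences among dim probe sets are compressed. No count or depth exists for arrays, and their number limits the precision. Of 45101 probe sets, 64 controls were left out. Of the 45037 tested, 34945 carried 1 symbol, 932 several and 9160 none. Groups came from the sample labels. In a supplement of the study the names of 2 Wapal arrays are exchanged (replicate 2 of shRNA1 with replicate 1 of shRNA2), which would alter each single-hairpin Wapal value and the errors and p-values of Wapal depletion, though not its mean log2 changes over all 4 arrays. Under the sample labels, Wapl intensity was 929 and 1005 in Wapal shRNA1 and 235 and 217 in Wapal shRNA2, so the replicates of each hairpin lay together. The methods call the replicates biological without saying how they were separated. The standard errors and p-values measure the spread between arrays of the same group. Differences between hairpins against one gene do not enter them.

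The log2 of each value entered limma 3.58.1 in R 4.3.3 (lmFit and eBayes, two-sided, Benjamini-Hochberg over all probe sets, threshold 0.05). Each depletion was the mean of both shRNA groups minus Empty Vector, fitted on 6 arrays, and the depletions were compared in 1 fit of all 10. The fit was tested on simulated data. The probe set of a gene is the one with the highest mean log2 intensity. All member genes were named, and of the other lists at most 8 genes that passed in a depletion. Likeness used the 5 genes with the highest correlation. Members and lists were chosen with earlier results of these data known. Alternatives were all arrays in 1 model, an offset of 16, another quantile normalization, a filter at log2 6, a trended prior, a replicate block, the array side, the probe set with the largest change, and each array left out. Symbols of all 213 probe sets in the lists matched the RefSeq gene table.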

Additional observations from a re-analysis of the deposited data

Results flagged for a closer look

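In the fit of all 10 arrays, the difference between the depletions passed the threshold for 5 genes. Each was lower in Wapal depletion than in Smc3 depletion. The log2 difference was -2.398 for Hs6st2 (adjusted p 1.78e-05), -0.6109 for Sulf1 (adjusted p 0.000244), -0.5428 for Sulf2 (adjusted p 0.000452), -0.5039 for Ext2 (adjusted p 0.00213) and -0.3321 for Hs2st1 (adjusted p 0.0143). Against Empty Vector, 2 of these genes had passed, Hs6st2 in both depletions and Sulf1 in Smc3 depletion. The Hs2st1 difference passed at its brightest probe set only, where Wapal shRNA1 (mean log2 9.62) was not below Smc3 shRNA1 (9.56).

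The hairpins against Smc3 differed from each other for 2 genes, with Smc3 shRNA2 above Smc3 shRNA1 by 1.088 in log2 for Hs6st2 (adjusted p 0.0117) and by 0.433 for Hs2st1 (adjusted p 0.0372). For Hs2st1 a pair of its other probe sets gave the opposite direction.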

How the results depend on the processing

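The fall of Hs6st1 and the Smc3 rise of Hs6st2 passed under every alternative that gave a value, with log2 changes of Hs6st1 from -0.83 to -0.68 in Wapal depletion and -0.93 to -0.80 in Smc3 depletion, and of Hs6st2 from 2.53 to 3.68. Hs6st2 gave no value with dim probe sets left out, since its mean log2 intensity was under 6. Over all member genes, comparisons and alternatives, 551 of 634 values kept their direction and their side of the threshold, 24 lost a call, 33 gained one and 26 turned round, of which 24 passed under neither setting. The number of member genes called in Wapal depletion (2) was 4 with a trended prior, 1 with the array side as a term, and 1 to 2 when each array was left out. In Smc3 depletion (3) it was 6 with the offset, 5 with dim probe sets left out, 5 with a trended prior, and 2 to 3 when each array was left out. Between the depletions (5) it was 4 to 5 when each array was left out. For Wapal shRNA2 against Wapal shRNA1 (0) it was 3 with all arrays in 1 model, 2 with the offset, 2 without dim probe sets, 3 with a trended prior, and 0 to 1 when each array was left out. For Smc3 shRNA2 against Smc3 shRNA1 (2) it was 0 to 3 when each array was left out. With the probe set of largest change, Sulf2 in Smc3 depletion turned to -0.5185 (adjusted p 0.0232) and Hs2st1 between the Smc3 hairpins to -0.7716 (adjusted p 0.00997), since other probe sets then stood for these genes. Under the same choice and with no call, Ext2 turned to 0.24 and Sulf1 to 0.24 in Wapal depletion, Hs2st1 to -0.37 in Smc3 depletion, Glce to -0.15 between the depletions, and Ext2 to 0.43 and Sulf2 to -0.14 between the Wapal hairpins. With another quantile normalization, Ext2 gave 0.0181 and Glce 0.0375 in Wapal depletion. When each array was left out, log2 changes that spanned 0 ran from -0.122 to 0.04999 (Glce) and -0.223 to 0.0395 (Ext2) in Wapal depletion, and from -0.127 to 0.0445 (Glce) and -0.0308 to 0.102 (Hs2st1) in Smc3 depletion. They ran from -0.0299 to 0.0409 (Glce) and -0.0566 to 0.0853 (Ext1) between the depletions, from -0.237 to 0.0469 (Ndst2), -0.0183 to 0.222 (Hs6st1) and -0.00156 to 0.0811 (Sulf2) between the Wapal hairpins, and from -0.0716 to 0.0999 (Ext2) and -0.0612 to 0.0160 (Ndst2) between the Smc3 hairpins. Where a group was left with 1 array, that array was assumed to vary like the others. The causes of the other changes were not tested.

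Replicate numbers did not pair the arrays, as the correlation of replicate differences between groups ran from -0.156 to 0.0569 over 10 pairs of groups. With the replicate number as a block, 2 member genes were called in Wapal depletion, 2 in Smc3 depletion (Sulf1 lost, adjusted p 0.0676), 5 between the depletions, 0 between the Wapal hairpins and 1 between the Smc3 hairpins (Hs2st1 lost, adjusted p 0.0585). Over all probe sets, calls in Wapal depletion were 2661, against 4264 with all arrays in 1 model, 4525 with a trended prior and 496 to 2281 when each array was left out. Those in Smc3 depletion were 3434, against 1534 to 4199 when each array was left out, and those between the depletions 7820, against 4968 to 8796. Between the Wapal hairpins they were 498, against 0 to 2318 over all alternatives, and between the Smc3 hairpins 4454, against 838 to 6128.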
